A study of Mus musculus with 6 samples.

Results

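The 10 genes described here handle arginine, citrulline, nitric oxide and polyamines, and were taken by name from the 25683 genes of the deposited table. They are Ass1, Asl, Arg1, Arg2, Nos1, Nos2, Nos3, Ddah1, Odc1 and Sat1. They were chosen by name with their read counts in these same 6 knock-out and wild-type libraries known, so their values, fitted differences and counting intervals are given as a description of these libraries, and no test of them is claimed. The libraries came from cultured mouse cells labelled as a primary line of aortic vascular smooth muscle, grown in 10% serum and then held in 0.5% serum during the last 48 h. Libraries 1, 2 and 3 carry the label Nt5e knock-out and libraries 4, 5 and 6 the label wild type, with no other treatment. Nt5e encodes CD73, the surface enzyme that makes adenosine from AMP. The labels give no strain, sex or age, do not say how Nt5e was removed, and do not say whether the 3 libraries of a genotype are separate animals or cultures. The titles carry 2 stems per genotype, one shared by libraries 1 and 2 and one by libraries 5 and 6, with no word on what a stem is. The spread between libraries may therefore be technical.

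Arginine is a branch point. Nitric oxide synthases (Nos1, Nos2, Nos3) turn it into nitric oxide and citrulline, argininosuccinate synthase (Ass1) and argininosuccinate lyase (Asl) rebuild arginine from citrulline, and arginases (Arg1, Arg2) split it into urea and ornithine. Ornithine decarboxylase (Odc1) makes putrescine, the first polyamine, and spermidine/spermine N1-acetyltransferase (Sat1) marks polyamines for export or breakdown. In the vessel wall, nitric oxide from endothelium relaxes smooth muscle by way of guanylyl cyclase and cyclic GMP, and Ddah1 clears methylated arginines that inhibit the synthases.

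Several facts of the libraries bear on every value below. Depth was 19919095 to 23669252 exon reads. The targeted gene, Nt5e, had 486 to 688 reads per wild-type library and 22, 1 and 2 reads in libraries 1, 2 and 3. Libraries 2 and 3 were nearly alike (biological coefficient of variation 3.66%), as were 4 and 6 (3.49%), whereas library 1 differed from library 2 by 44.6% and from library 4 by 44.2%. Library 5 differed from libraries 4 and 6 by 14.97% and 15.73%. The nearly alike libraries have different title stems but share the last number of their titles. That number is 2 in libraries 2, 3, 4 and 6 and 1 in libraries 1 and 5, the library least like the others in each genotype. The labels do not say what it stands for. Here n = 3 counts libraries. The summed level of 8 smooth muscle markers was 136 to 206 CPM (read counts scaled to TMM-adjusted library size) in the wild type and 177, 698 and 671 CPM in libraries 1, 2 and 3, with Acta2 highest. Among these, Myh11, the smooth muscle myosin heavy chain, had 3, 3 and 1 reads in wild-type libraries 4, 5 and 6. It had 5, 54 and 67 reads in knock-out libraries 1, 2 and 3, so library 1 was near the wild type. Its reads were too few to be tested over all 6 libraries. Des and Myocd were under 10 reads. Of the 5 tested smooth muscle markers, 1 rose, Smtn, from 4584 to 6150 reads (edgeR adjusted p = 0.0296). Cnn1, calponin, fell instead, from 139 to 24 reads (edgeR adjusted p = 0.0246). Markers of mesothelium and epithelium moved with genotype. All 8 tested of 10 fell, their summed level was 3049 to 3178 CPM in the wild type, led by Msln, and 202, 88.3 and 82.6 CPM in libraries 1, 2 and 3, and their part in the values below was not tested. Those of 7 fibroblast markers, with Dcn highest, summed to 3656 to 3783 CPM in the wild type and 4037, 5615 and 5924 CPM in libraries 1, 2 and 3. Within that list 2 rose and 1 fell, with Pi16 going from 35 to 971 reads (adjusted p = 0.00702) and Thy1 from 3189 to 434 reads (adjusted p = 0.000414). Smtn, Cnn1, Myh11, Des, Myocd, Pi16 and Thy1 were named after their values were seen. With the nearly alike libraries summed, the edgeR adjusted p was 0.244 for Smtn, 0.219 for Cnn1, 0.127 for Pi16 and 0.0583 for Thy1. In bulk RNA, fewer cells of a type and less RNA per cell cannot be told apart.

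Stretches just upstream of Ass1, Odc1 and Sat1 are printed because these were the 3 most abundant members per length in the knock-out libraries. They come from the RefSeq promoter table (GRCm38.p6), in which 5 of the 10 members had an entry, and hold the bases upstream of both the RefSeq and the deposited gene start. They are chr2:31470020-31470206 on the plus strand for Ass1, chr12:17544623-17544793 on the plus strand for Odc1 and chrX:155216450-155216699 on the minus strand for Sat1. Capitals mark the GC box GGGCGG, the binding motif of the Sp1 family, on either strand.
Ass1: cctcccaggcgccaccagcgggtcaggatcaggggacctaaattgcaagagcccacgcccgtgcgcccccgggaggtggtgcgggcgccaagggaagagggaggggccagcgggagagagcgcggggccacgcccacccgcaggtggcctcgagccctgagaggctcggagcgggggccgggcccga
Odc1: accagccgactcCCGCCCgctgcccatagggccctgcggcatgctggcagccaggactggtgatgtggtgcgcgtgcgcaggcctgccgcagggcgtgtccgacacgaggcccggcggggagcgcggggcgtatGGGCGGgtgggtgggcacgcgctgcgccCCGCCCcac
Sat1: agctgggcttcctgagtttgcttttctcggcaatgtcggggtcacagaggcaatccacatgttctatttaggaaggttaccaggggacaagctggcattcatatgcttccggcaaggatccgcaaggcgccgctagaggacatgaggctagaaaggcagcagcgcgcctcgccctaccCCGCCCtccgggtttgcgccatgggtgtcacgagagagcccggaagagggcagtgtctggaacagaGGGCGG
The GC box was found 3 times in the Odc1 stretch and 2 times in the Sat1 stretch, and not in that of Ass1. Of 27025 RefSeq promoters, 19.4% held it in a window of the length and position used for Odc1, and 32.9% and 22.1% in those used for Sat1 and Ass1. The E-box CACGTG, the cAMP response element TGACGTCA, the TATA box TATAAA and the amino acid response element TGATGCAA, each searched on both strands, were not found in any of the 3 windows. In the window used for Ass1, these motifs were held by 3.96%, 0.688%, 8.97% and 0.54% of promoters.

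Among the 10 members, 6 passed the filter on low counts (Ass1, Asl, Arg1, Ddah1, Odc1 and Sat1), and 4 did not (Arg2 and the 3 synthases). In the fit across all 12660 tested genes, 3 of the 6 were past an adjusted p of 0.05, Ass1 higher and Arg1 and Odc1 lower in the knock-out, where 27.8% of all tested genes were (14.1% higher and 13.7% lower). Values of 4 of the 6 did not overlap between genotypes, Ass1 and Ddah1 higher and Arg1 and Odc1 lower, where 49.7% of all tested genes did not (24.3% higher and 25.5% lower). Without library 1, 5 of the 6 members were called (66.2% of all genes), with the nearly alike libraries summed only Ass1 (0.13%), and with libraries summed by title stem 3 (29.0%). With library totals in place of TMM scaling, 40.1% of the genes called were higher, against 50.7%. Since the choice of members used this contrast, nothing is read from these counts.

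**Figure D1:**
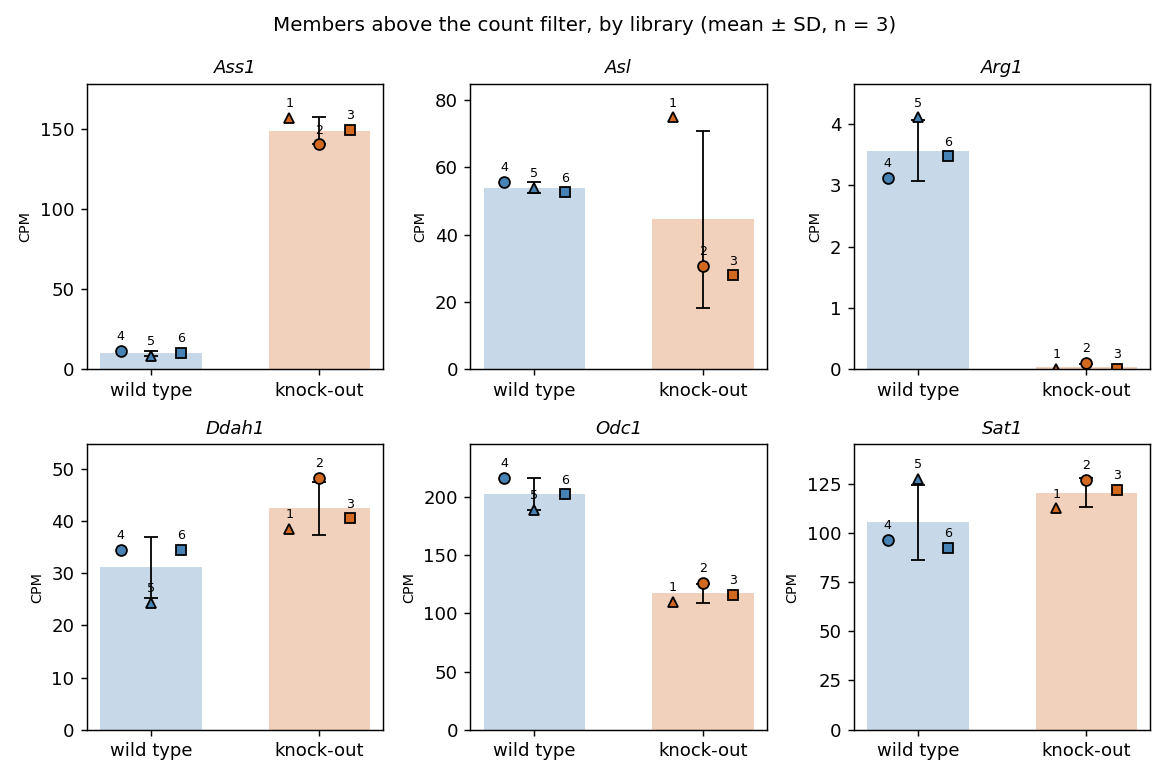
CPM of the 6 members above the count filter, with points for single libraries (numbered 1 to 6), bars for the mean and whiskers for the SD of 3 libraries; each panel has its own linear axis from 0. Ass1 stands near 149 CPM in the knock-out against 9.83 CPM in the wild type, and Arg1 is almost without exon reads in the knock-out. The Asl values of the knock-out fall on both sides of the wild type.

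The largest difference among the well-expressed members was in Ass1, which joins citrulline and aspartate in the first step of arginine regeneration. Ass1 (ENSMUSG00000076441, chromosome 2, 31470207 to 31520672, plus strand, GRCm38) stood at 11.4, 8.26 and 9.82 CPM in libraries 4, 5 and 6 (wild type). Its level was 157, 140.2 and 149 CPM in libraries 1, 2 and 3 (knock-out). All knock-out libraries, library 1 included, lay far above all wild-type libraries. The means were 9.83 ± 1.58 and 149 ± 8.33 CPM (SD, n = 3 each), a fitted difference of 3.92 ± 0.14 (log2, SE) or 15.1-fold. Over 18 alternative settings the log2 difference ran from 3.75 to 4.04. Reads across exon junctions of Ass1 showed the same order, with 227, 177 and 176 in the wild type and 3111, 2585 and 2420 in the knock-out.

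Asl, the next enzyme of the route, did not follow Ass1. Asl (ENSMUSG00000025533, chromosome 5, 130011258 to 130029247, minus strand) was at 55.6, 53.8 and 52.5 CPM in libraries 4, 5 and 6 and at 74.9, 30.7 and 27.8 CPM in libraries 1, 2 and 3. Knock-out library 1 was thus above every wild-type library and libraries 2 and 3 below them, so the genotypes overlapped. The fitted difference was -0.28 ± 0.39 (log2, SE) with all libraries and -0.89 without library 1. With the nearly identical libraries summed it was -0.05.

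The balance of both enzymes can be set out per length within each library. The ratio of Ass1 RPKM to Asl RPKM (reads per kilobase of exon, scaled to library size, as deposited) was 0.371, 0.277 and 0.338 in wild-type libraries 4, 5 and 6. It was 3.78, 8.24 and 9.69 in knock-out libraries 1, 2 and 3. Asl was the more abundant transcript in every wild-type library and Ass1 in every knock-out library, and the spread among knock-out libraries came with the lower Asl of libraries 2 and 3.

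Arginase 1, the cytosolic arginase of the urea cycle, was almost without exon reads in the knock-out. Arg1 (ENSMUSG00000019987, chromosome 10, 24915221 to 24927484, minus strand) had 70, 100 and 75 reads in libraries 4, 5 and 6 and 0, 2 and 0 in libraries 1, 2 and 3. With 245 reads over the wild type and 2 over the knock-out, the ratio of wild type to knock-out was 113, with an exact 95% counting interval of 31.0 to 939. Intervals and limits on reads cover counting error only. The wild-type level was itself low, at 3.12, 4.11 and 3.47 CPM. Junction reads numbered 45, 55 and 47 in the wild type and 0 in each knock-out library. Intron reads were few, 2, 4 and 5 in libraries 4, 5 and 6 and 5 in each knock-out library, and did not fall with the exon reads. Arg1 is also known from macrophages. Of 8 macrophage and leukocyte markers, the defining genes Ptprc, Adgre1, Itgam and Tyrobp had 0 reads in all 6 libraries, which allows up to 3 reads each. The summed level of the list was 4.54 to 7.13 CPM in the wild type and 6.36, 16.8 and 13.6 CPM in libraries 1, 2 and 3. Its members went both ways, Lyz2 from 122 to 660 reads (edgeR adjusted p = 0.0156) and Cd68, which like Arg1 was lower, from 205 to 38 reads (adjusted p = 0.00704, named after its value was seen). With the nearly alike libraries summed, the edgeR adjusted p was 0.170 for Lyz2 and 0.141 for Cd68. The part of these markers in the Arg1 values was not tested.

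Arg2, the mitochondrial arginase, was close to absent in both genotypes. Arg2 (ENSMUSG00000021125, chromosome 12, 79130777 to 79156301, plus strand) had 3, 5 and 6 exon reads in libraries 4, 5 and 6 and 6, 1 and 2 in libraries 1, 2 and 3, which gives 1.44 for wild type over knock-out (95% counting interval 0.579 to 3.76). Its 43 to 69 intron reads per library cannot be assigned to it, since Vti1b lies over it on the opposite strand and no source used here states how strand was handled.

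None of the nitric oxide synthases reached the count filter. Nos1, the neuronal form (ENSMUSG00000029361, chromosome 5, 117781032 to 117958840, plus strand), had 1 read in library 4, 1 in library 3 and 0 in the others. Nos2, the inducible form (ENSMUSG00000020826, chromosome 11, 78920787 to 78960254, plus strand), had 3, 7 and 4 reads in libraries 4, 5 and 6 and 1, 1 and 0 in libraries 1, 2 and 3. Over the groups this is 14 against 2 reads, or 6.46 to 1 (counting interval 1.48 to 58.6), an interval that does not cover the spread between libraries. Nos3, the endothelial form (ENSMUSG00000028978, chromosome 5, 24364810 to 24384474, plus strand), had 2, 2 and 4 reads against 2, 1 and 1, a ratio of 1.85 (0.495 to 8.38), and Atg9b overlaps it on the opposite strand. At these depths 3 reads stand for 0.123 to 0.160 CPM, and no synthase had over 7 reads in any library. Endothelial markers were low too, at a summed 1.53 to 2.45 CPM in the wild type and 3.07, 7.02 and 7.40 CPM in libraries 1, 2 and 3. Kdr led them, with 36 reads in the wild type and 296 in the knock-out, while Vwf, named after its value was seen, had 44 and 7. Tie1 had 0 reads in all libraries, and Pecam1, also named after its value was seen, had 6 reads in the wild type and 4 in the knock-out.

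Ddah1, a dimethylarginine hydrolase (ENSMUSG00000028194, chromosome 3, 145758675 to 145894277, plus strand), was at 34.6, 24.4 and 34.4 CPM in libraries 4, 5 and 6 and at 38.6, 48.3 and 40.5 CPM in libraries 1, 2 and 3. The genotypes did not overlap, but wild-type libraries 4 and 6 lay closer to knock-out libraries 1 and 3 than to library 5. The means were 31.1 ± 5.84 and 42.5 ± 5.12 CPM, and the fitted difference was 0.45 ± 0.17 (log2, SE), running from 0.30 to 0.53 over the alternatives.

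Odc1, which makes putrescine and is regarded as the rate-limiting enzyme of polyamine synthesis, was lower in each knock-out library. Odc1 (ENSMUSG00000011179, chromosome 12, 17544794 to 17551505, plus strand) was at 217, 189 and 202 CPM in libraries 4, 5 and 6 and at 110.3, 126 and 116 CPM in libraries 1, 2 and 3. The knock-out libraries stood at 54.4%, 62.1% and 57.0% of the wild-type mean, and library 1 was not apart from the others here. The fitted difference was -0.79 ± 0.09 (log2, SE), with a range of -0.89 to -0.74 over the alternatives. Junction reads followed, at 3163, 2951 and 2806 in the wild type and 1581, 1711 and 1397 in the knock-out.

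Sat1, the polyamine acetyltransferase, on the X chromosome (ENSMUSG00000025283, 155213132 to 155216449, minus strand), was at 96.3, 127 and 92.2 CPM in libraries 4, 5 and 6 and at 112, 127 and 122 CPM in libraries 1, 2 and 3. Wild-type library 5 was as high as the highest knock-out library, so the genotypes overlapped. The fitted difference was 0.19 ± 0.14 (log2, SE), and 0.39 with libraries 2, 3, 4 and 6 alone. The ratio of Odc1 RPKM to Sat1 RPKM was 1.04, 0.686 and 1.01 in libraries 4, 5 and 6 and 0.452, 0.458 and 0.437 in libraries 1, 2 and 3. It was lower in every knock-out library than in any wild-type library and nearly constant among them, including library 1.

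Sat1 is known to be controlled in part by splicing, with unproductive transcripts made when polyamines are low. Its intron reads, a measure in the same libraries and thus no independent check, were 365, 498 and 338 in libraries 4, 5 and 6 and 512, 798 and 723 in libraries 1, 2 and 3. As a share of exon and intron reads they were 14.5%, 13.9% and 14.5% in the wild type and 16.5%, 22.9% and 24.0% in the knock-out. Libraries 2 and 3 were highest, and library 1 was only just above the wild type. Of 12427 tested genes with exon or intron reads in each library, 10.0% had a higher intron share in each knock-out library than in any wild-type library. The median intron share over tested genes was 5.18%, 5.06% and 5.39% in libraries 4, 5 and 6 and 4.55%, 5.75% and 5.99% in libraries 1, 2 and 3. The intron share over all genes thus moved the same way between library 1 and libraries 2 and 3, and the part this has in the Sat1 share was not tested.

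**Figure D2:**
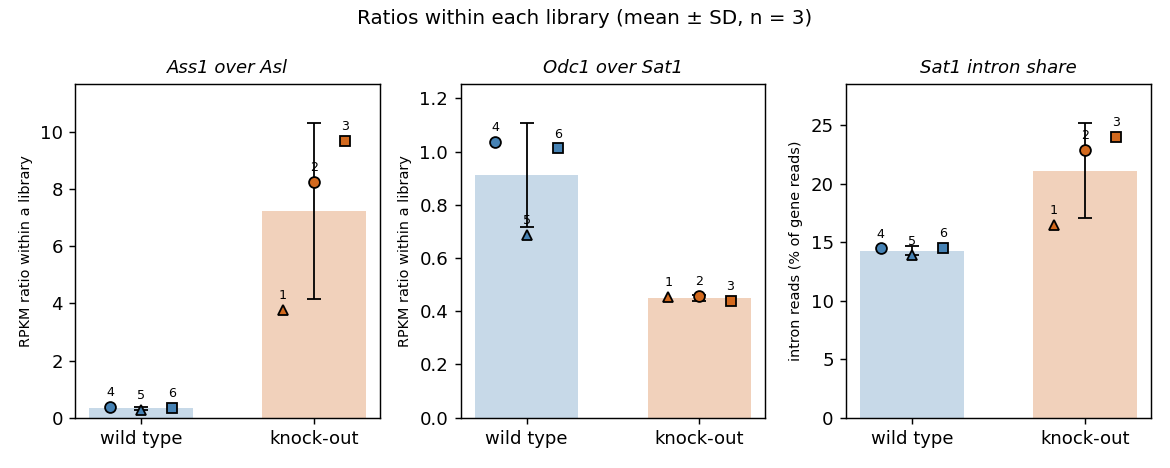
Ratios within each library, with points for single libraries (numbered 1 to 6), bars for the mean and whiskers for the SD of 3 libraries, all axes linear from 0: Ass1 over Asl and Odc1 over Sat1 as ratios of RPKM, and Sat1 intron reads as a percentage of its exon and intron reads. The Odc1 to Sat1 ratio is between 0.437 and 0.458 in the knock-out, while the other panels show library 1 apart from libraries 2 and 3.

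Per length, the members ordered differently in the genotypes. In the wild type, RPKM ran from Sat1 (77.6 ± 13.5, SD, n = 3) and Odc1 (69.0 ± 5.00) to Asl (16.8 ± 0.497), Ddah1 (7.84 ± 1.52), Ass1 (5.54 ± 0.916) and Arg1 (2.30 ± 0.309). Sat1 and Odc1 overlapped in that order, as did Ddah1 and Ass1. In the knock-out, Ass1 (79.3 ± 7.94) came next to Sat1 (83.9 ± 1.96) with overlapping values, followed by Odc1 (37.7 ± 1.63), Asl (13.4 ± 8.60) and Ddah1 (10.1 ± 0.957), of which Asl and Ddah1 overlapped. Arg2 was between 0.0290 and 0.187 RPKM in all 6 libraries, and the 3 synthases were at most 0.0630 RPKM. The main change of place was that of Ass1, from rank 5 in the wild type to rank 2 in the knock-out.

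**Figure D3:**
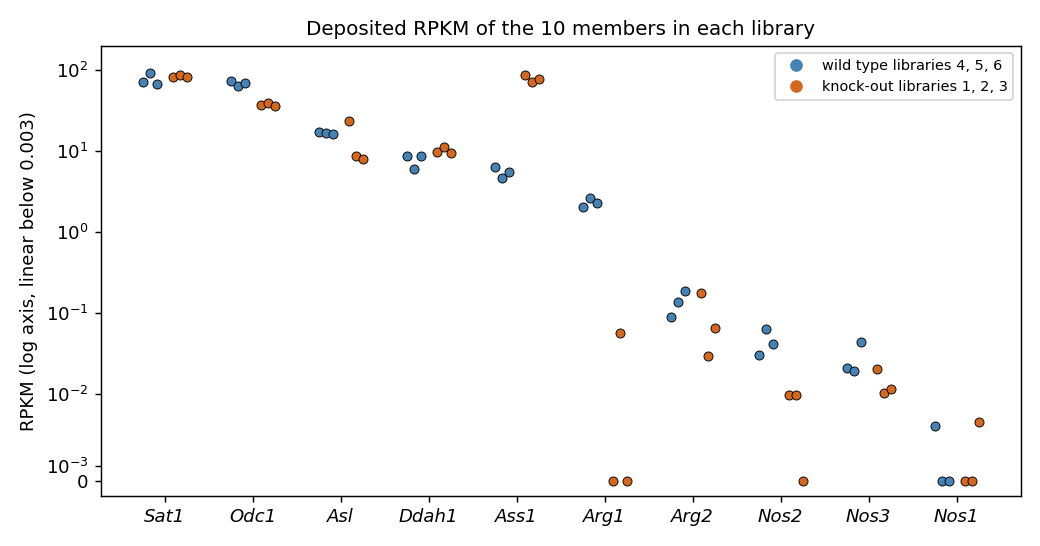
Deposited RPKM of the 10 members, 1 point per library, on a log axis that is linear below 0.003 so that 0 can be shown. Ass1 is the member whose genotypes lie furthest apart among the 5 abundant genes, and Arg2 and the 3 synthases lie below 0.2 RPKM in all libraries.

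The genes whose pattern over the 6 libraries was nearest to each member with at least 50 reads on average were sought among 11366 tested genes, by the root mean square distance between centred log2 CPM profiles. For Ass1 these were Cped1 at a distance of 0.19 and Fbxl2 at 0.39 (log2 units), and Cped1 was the only gene within 0.2. For Asl they were Bscl2 (0.06) and Rab3d (0.06), and 151 genes lay within 0.2. For Odc1 they were Akirin1 (0.04) and Meis2 (0.05), with 416 genes within 0.2. For Ddah1 they were Ppp3cc (0.04) and Gps2 (0.08), and for Sat1 Mmp11 (0.04) and Mcm2 (0.04), where 774 and 2214 genes lay within 0.2. These distances were not scaled to the size of each pattern. The SD of the log2 profile was 1.96 for Ass1, 0.50 for Asl, 0.40 for Odc1, 0.30 for Ddah1 and 0.19 for Sat1. A fixed distance of 0.2 holds fewer genes around a larger pattern, so nothing about Ass1 is read from these counts. Arg1, below that read count on average, was not searched.

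Around the members, 76 further genes of these routes were placed in 10 lists. Of these, 65 were tested, 11 rose and 9 fell (edgeR, p adjusted by Benjamini-Hochberg over all tested genes, threshold 0.05), which is 30.8% against 27.8% of all tested genes. Their median log2 difference was 0.04, against 0.02 over all tested genes. That share lies near the background of all genes. The lists were chosen with earlier results of these data known and are short, so nothing is read from the shares of single lists below. Without library 1 the counts were 24 and 19, or 66.2%, the same share as over all genes (66.2%). With the nearly identical libraries summed, none of 66 passed in edgeR (17 at an unadjusted p under 0.05), when 0.13% of all genes did, and all 20 called genes kept their direction. With libraries summed by title stem, 22 of 65 passed, 19 of the 20 among them. Of the 20 calls, 7 held whichever library was left out: Gatm, Slc7a7, Gch1, Nos1ap, Cav1, Slc18b1 and Eif5a2.

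**Figure D4:**
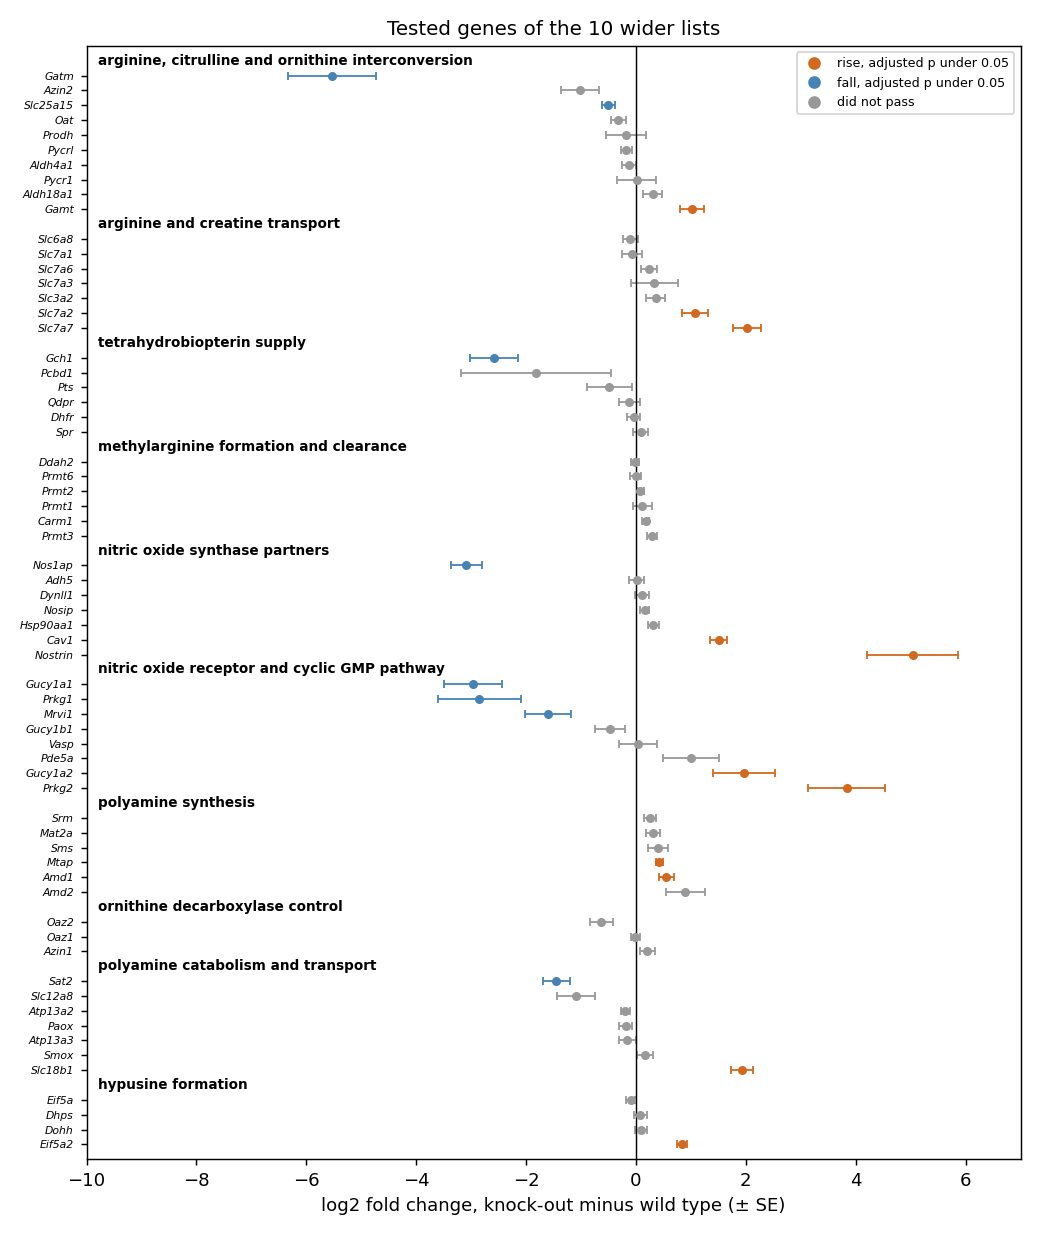
Fitted log2 difference (knock-out minus wild type, x axis) with its standard error for tested genes of the 10 lists, coloured by whether the gene rose, fell or did not pass at an adjusted p of 0.05. Rises and falls stand side by side in the lists for nitric oxide synthase partners and for the nitric oxide receptor; the values of Gatm and Nostrin, with at most 2 reads in 1 genotype, depend on the prior count of the fit.

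Among genes that interconvert arginine, citrulline and ornithine, 1 of 11 tested members rose and 3 fell (36.4% called, against 27.8% of all tested genes). The liver-type urea cycle genes Cps1, Nags and Otc had 0 reads in every library, which allows up to 3 reads each. Gatm, which begins creatine synthesis from arginine, had 117 reads over the wild type and 2 over the knock-out, 54.0-fold lower in the knock-out (95% counting interval 14.6 to 451, edgeR adjusted p = 0.00685). Both knock-out reads were in library 1, and the fitted log2 difference went from -5.54 to -8.22 without it. Gamt, which completes that synthesis, rose instead, from 12.2 ± 0.315 to 24.7 ± 7.10 CPM (log2 difference 1.02 ± 0.22, adjusted p = 0.0224). Slc25a15, the mitochondrial ornithine carrier, fell from 20.7, 26.1 and 22.3 CPM in libraries 4, 5 and 6 to 15.5, 16.6 and 16.6 CPM in libraries 1, 2 and 3 (-0.50 ± 0.12, adjusted p = 0.0258). Oat, the ornithine aminotransferase, with the most reads of the list, was at 294 ± 25.4 and 235 ± 38.7 CPM and did not pass (-0.32 ± 0.14, adjusted p = 0.135). Fgfr2 lies over Oat on the chromosome. The calls of Slc25a15 and Gamt each ended when any of libraries 2 to 6 was left out (adjusted p up to 0.0894), and that of Slc25a15 also with libraries summed by title stem (0.0514).

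Arginine and creatine carriers gave 2 rises and no fall among 7 tested genes (28.6% called, against 27.8% of all tested genes). Slc7a2, the cationic amino acid transporter CAT-2, was at 224, 239 and 223 CPM in libraries 4, 5 and 6 and at 315, 562 and 564 CPM in libraries 1, 2 and 3 (1.07 ± 0.23, adjusted p = 0.0223). Slc7a7, a light chain of the y+L exchanger for cationic amino acids, was at 3.83, 3.45 and 4.59 CPM against 11.1, 17.6 and 19.3 CPM (2.01 ± 0.25, adjusted p = 0.00480). In both genes library 1 lay between the wild type and libraries 2 and 3. Oxa1l lies over Slc7a7 on the chromosome, so its reads are uncertain to that extent. The call of Slc7a2 ended when any of libraries 2 to 6 was left out (adjusted p up to 0.0934).

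The cofactor tetrahydrobiopterin, which the synthases need, had 1 fall and no rise among 6 tested genes of its supply. This is 16.7% called, against 27.8% of all tested genes. Gch1, the first enzyme of its synthesis, fell from 41.6, 42.8 and 40.0 CPM in libraries 4, 5 and 6 to 11.8, 5.28 and 3.62 CPM in libraries 1, 2 and 3 (-2.58 ± 0.43, adjusted p = 0.0104). Without library 1 the difference was -3.22. Spr, the enzyme of the last step, with the most reads of the list, was at 58.2 ± 1.31 and 61.9 ± 11.3 CPM (0.09 ± 0.13, adjusted p = 0.651), with a sign that turned under library totals and without library 1.

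Genes that form or clear methylarginines held no call in edgeR among 6 tested (2 at an unadjusted p under 0.05, 1, Carm1, in DESeq2 and 0 in limma-voom). Of all tested genes, edgeR called 27.8%. Carm1, an arginine methyltransferase, with the most reads of the list, was at 95.5 ± 1.80 and 108 ± 4.63 CPM (0.18 ± 0.07, edgeR adjusted p = 0.0965). Yipf2 lies over Carm1 on the chromosome.

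Partners of the synthases moved both ways, with 2 rises and 1 fall among 7 tested genes (42.9% called, against 27.8% of all tested genes). Cav1, caveolin-1, a membrane scaffold known to hold the endothelial synthase inactive, rose from 134 ± 22.0 to 381 ± 42.5 CPM (1.51 ± 0.15, adjusted p = 0.00262). Nostrin, a trafficking partner of the endothelial synthase, had 1 read over the wild type and 42 over the knock-out, 45.5-fold higher (counting interval 7.73 to 1838, adjusted p = 0.00976). The wild-type read was in library 6, without which the fitted log2 difference went from 5.04 to 6.88, and the call ended without library 4 (adjusted p = 0.0547). Nos1ap, an adaptor of the neuronal synthase, fell from 21.3 ± 2.25 to 2.50 ± 0.919 CPM (-3.08 ± 0.28, adjusted p = 0.00188), with Spata46 and Gm7694 overlapping it. Hsp90aa1, a chaperone with the most reads of the list, was at 582 ± 38.4 and 724 ± 61.7 CPM (0.32 ± 0.10, adjusted p = 0.0650). The synthases themselves had at most 7 reads in any library.

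Downstream of nitric oxide, 2 of 8 tested genes of the receptor and cyclic GMP route rose and 3 fell. This is 62.5% called, against 27.8% of all tested genes. Gucy1a1, the alpha-1 chain of the nitric oxide receptor guanylyl cyclase, fell from 145, 128 and 155 CPM in libraries 4, 5 and 6 to 34.1, 9.90 and 10.7 CPM in libraries 1, 2 and 3 (-2.96 ± 0.53, adjusted p = 0.0122). Its alternative, Gucy1a2, was at 1.92, 2.01 and 2.92 CPM and at 2.90, 11.8 and 12.1 CPM (1.96 ± 0.57, adjusted p = 0.0493), a rise that lay in libraries 2 and 3. That call ended in limma-voom (adjusted p = 0.163) and with the number after p in the titles as a covariate (0.0665). It also ended under library totals (0.0541) and without a count filter (0.0538). In limma-voom 3 genes of the list were called, against 5 in edgeR, so Gucy1a2 was not the only call that ended there. Gucy1b1, the chain both alpha chains pair with, was at 10.4 ± 0.711 and 7.54 ± 2.56 CPM and did not pass (-0.47 ± 0.28, adjusted p = 0.250), a value looked up after the others were seen.

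The kinases of this route also differed. Prkg2, a cyclic GMP-dependent kinase, rose from 0.580, 0.0822 and 0.880 CPM to 6.58, 6.98 and 8.46 CPM (3.83 ± 0.69, adjusted p = 0.0129). Prkg1, the form typical of smooth muscle and named as the remaining fall after its value was seen, was at 22.3, 88.3 and 22.0 CPM in libraries 4, 5 and 6 and at 10.7, 3.86 and 3.72 CPM in libraries 1, 2 and 3 (-2.85 ± 0.76, adjusted p = 0.0395). Library 5 stood far above the others. Mrvi1, a substrate of that kinase on calcium stores, fell from 33.1 ± 7.81 to 10.9 ± 5.23 CPM (-1.60 ± 0.42, adjusted p = 0.0368). Vasp, another kinase substrate, with the most reads of the list, was at 98.2 ± 4.42 and 101 ± 43.8 CPM (0.04 ± 0.35, adjusted p = 0.943), with a sign that turned under library totals and in limma-voom. Without library 1 the differences of Gucy1a1 and Prkg1 were -3.80 and -3.55, without library 5 that of Prkg1 was -1.86, and without library 6 that of Prkg2 was 4.46. The calls of Gucy1a1 and Prkg2 ended without library 4 (adjusted p = 0.0528 and 0.0679), and those of Gucy1a2, Prkg1 and Mrvi1 when any of libraries 2 to 6 was left out (adjusted p up to 0.164). Cstf2t lies over Prkg1 on the chromosome.

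In polyamine synthesis, 2 of 6 tested genes rose and none fell (33.3% called, against 27.8% of all tested genes). Amd1, the S-adenosylmethionine decarboxylase that supplies aminopropyl groups, was at 89.4, 85.5 and 86.9 CPM in libraries 4, 5 and 6 and at 103, 146 and 136 CPM in libraries 1, 2 and 3 (0.56 ± 0.14, adjusted p = 0.0317). Its near copy Amd2 may share reads with it. Mtap, which salvages the methylthioadenosine left by polyamine synthesis, rose from 56.0 ± 1.13 to 75.2 ± 1.92 CPM (0.42 ± 0.06, adjusted p = 0.00665). Mat2a, which makes S-adenosylmethionine and had the most reads of the list, was at 182 ± 1.53 and 225 ± 37.0 CPM (0.31 ± 0.13, adjusted p = 0.130). The call of Amd1 ended when any of libraries 2 to 6 was left out (adjusted p up to 0.111) or the number after p in the titles was a covariate (0.0525), and that of Mtap without library 4 (0.0513).

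Proteins that govern Odc1 activity, the antizymes and their inhibitor, held no call in edgeR among 3 tested genes (1 at an unadjusted p under 0.05, 1, Oaz2, in DESeq2 and 0 in limma-voom). Of all tested genes, edgeR called 27.8%. Oaz1, the main antizyme, which directs ornithine decarboxylase to degradation, was at 290.3 ± 5.61 and 288 ± 22.4 CPM (-0.01 ± 0.08, adjusted p = 0.918), with a sign that turned with the nearly alike libraries summed.

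In polyamine catabolism and transport, 1 of 7 tested genes rose and 1 fell (28.6% called, against 27.8% of all tested genes). Slc18b1, a vesicular polyamine carrier, rose from 5.44, 3.78 and 5.93 CPM in libraries 4, 5 and 6 to 17.2, 19.8 and 20.7 CPM in libraries 1, 2 and 3 (1.93 ± 0.20, adjusted p = 0.00296). Sat2, a paralogue of Sat1, fell from 2.77 ± 0.314 to 1.01 ± 0.115 CPM (-1.45 ± 0.24, adjusted p = 0.0106), a call that ended without library 2 or 4 (0.0503 and 0.0617). Atp13a3, a polyamine transport ATPase, with the most reads of the list, was at 240 ± 9.74 and 215 ± 40.9 CPM (-0.16 ± 0.15, adjusted p = 0.462).

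Spermidine also feeds hypusine, a modified residue of the translation factor eIF5A, and there 1 of 4 tested genes rose (25.0% called, against 27.8% of all tested genes). Eif5a2, the minor form of that factor, was at 12.8, 13.5 and 13.7 CPM in libraries 4, 5 and 6 and at 23.1, 23.8 and 24.3 CPM in libraries 1, 2 and 3 (0.84 ± 0.09, adjusted p = 0.00271). Eif5a, the main form, was at 467 ± 12.1 and 438 ± 27.1 CPM (-0.09 ± 0.08, adjusted p = 0.418). Library 1 was not apart from libraries 2 and 3 in Eif5a2.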

How the data were processed

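Poly(A)-selected RNA of 6 libraries, 3 per genotype, was sequenced from a stranded kit and 1 ug of total RNA, per the labels' protocols. The deposited table gives, per gene and library, read counts made by the authors (exon, unique exon, exon junction and intron reads), and an RPKM value by the authors, used here only to set levels of different genes side by side. Coordinates are on GRCm38 (mm10), the build named in the submitters' processing notes. Which aligner, counter and strand setting were used is not given in the sources used here.

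Total exon reads were fitted with edgeR 4.0.16 (R 4.3.3) after low counts were removed by filterByExpr (minimum count 10) and TMM factors were set. Genotype alone was tested, by the quasi-likelihood F statistic, and p-values were adjusted by Benjamini-Hochberg over all 12660 tested genes, with a threshold of 0.05. Standard errors are log2 differences over the square root of F. CPM use TMM-adjusted library sizes, and log2 CPM a prior count of 2. Limits take 3 reads, and ratios of few reads have exact 95% intervals. The members and lists were chosen with earlier results of these data known. Named in the text are all members, per list the 2 calls of smallest p in each direction and the gene of most reads, and genes marked as named after their values were seen. Alternatives used DESeq2 1.42.0 and limma 3.58.1, other scalings, filters and covariates, unique reads, summed pairs, left-out libraries and, chosen after seeing the data, libraries summed by title stem. On simulated counts for the 12660 genes, 36.3% of genes changed 2-fold and 75.0% of those changed 4-fold were found by edgeR, and the false share of calls was 6.70%. The simulated libraries were drawn independently, with 200 genes changed and no nearly alike pairs. These shares therefore do not carry over to the real libraries. The values of 1 gene of the lists are not reported or plotted here, though counts over the lists include it. Plots were drawn with matplotlib 3.10.9.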

Additional observations from a re-analysis of the deposited data

How the results depend on the processing

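For the 6 tested members the log2 difference kept its sign in all 18 alternatives, and 100 of 108 values moved by less than 1 SD between libraries. The 8 that moved more included Asl without library 1 or with libraries 2, 3, 4 and 6 alone, and Sat1 with those 4 libraries. The others were Arg1 with 1 knock-out library left out or with those 4 libraries, and Odc1 with total counts. The number of genes that differed, 3524, was 17 with knock-out libraries 2 and 3 and wild-type libraries 4 and 6 summed, 9286 with those 4 libraries alone, and 1120 (without library 4) to 8486 (without library 1) when 1 library was left out. For the wider lists, 20 calls became 0, 48 and 7 (without library 4) to 43 (without library 1) in the same settings, and 18 to 25 in the others. An alternative chosen after seeing the data, with libraries summed by title stem, gave 3797 genes and 22 calls. With total counts, 40.1% of called genes were higher in the knock-out, against 50.7%. Among the genes named, signs turned for Spr, Vasp and Oaz1. Spr was at -0.00041 with total counts, -0.064 with the 4 libraries, and -0.078 (without library 1) to 0.18 with 1 library left out. Vasp was at -0.075 with total counts, -0.081 in limma-voom, -0.29 and -0.069 with the number after p and the last number of the titles as covariates, and -0.16 with pairs summed. With 1 library left out it ran from -0.18 (without library 2) to 0.35 (without library 1, where it passed). Oaz1 was at 0.022 with the number after p as covariate, 0.014 with pairs summed, and -0.086 (without library 1) to 0.028 (without library 3). The cause was not tested. No paired analysis was possible because the replicate numbers are 1 to 3 and 4 to 6, with none shared between genotypes. Numbers in the titles are shared, and with them as covariates 3122 (number after p) and 4510 (last number) genes differed. Depth limits Arg2 and the synthases, all under the count filter.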
